A study of Mus musculus with 24 samples.

Results

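The 10 genes followed here mark neutrophils and inflammatory myeloid cells, and were measured in quadriceps muscle of B6 (C57BL/6) and MRL (MRL/MpJ) mice. They were S100a8, S100a9, Csf3r, Clec4d, Clec4e, Trem1, Fpr1, Fpr2, Slpi and Myo1f. They were chosen by symbol, and 9 of the 10 had a row among the 14159 named genes of the expression matrix. Fpr1 had no row and was not analysed here. B6 is a standard inbred strain, and MRL is an inbred strain studied for its healing of ear wounds and its tendency to autoimmunity. The 24 bulk RNA libraries came from whole quadriceps of female mice, 6 to 8 weeks old when operated on, with 3 libraries in each of 8 groups. In each strain the muscle was left uninjured or had a piece cut from it (volumetric muscle loss), and the defect received saline as the control injury, decellularized extracellular matrix (ECM) from pig small intestine, or polyethylene powder (PE). Injured muscle was taken 21 days post-injury. For all 9 genes every B6 PE library lay above every B6 saline library, as for 18.7% of all genes. Every B6 PE library also lay above every uninjured B6 library for all 9, as for 27.0% of all genes. S100a8, S100a9, Trem1, Fpr2 and Slpi entered the matrix only through PE libraries and had to differ there. Of the 3 MRL PE libraries, 1 stood above the others. With saline or ECM none of the 9 was called against uninjured muscle in either strain. Of all genes, 0% were called with saline in both strains, and 0.424% in B6 and 0.0141% in MRL mice with ECM.

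Neutrophils leave the bone marrow under the control of granulocyte colony-stimulating factor, are drawn into injured tissue by chemokines and formyl peptides, and release granule proteins and the calcium-binding S100A8/S100A9 dimer (calprotectin). Monocytes and macrophages share much of this program: C-type lectins of the Clec4 cluster, TREM-1 and formyl peptide receptors sense microbes, dead cells and particles in all of these cells. A transcript level in bulk muscle cannot tell fewer cells of a type from less RNA per cell, and none of the 9 genes is made by a single cell type.

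Levels are given as log2 CPM, where CPM is the reads of a gene relative to the library size after scaling of the libraries, and replicate 1 stands before replicates 2 and 3. A count of 0 is listed at -3.65, and 3 reads in a library of the mean effective size (25149682 reads) correspond to -2.33. Levels near that floor rest on a few reads and are imprecise. Groups were compared with limma over all 14159 genes, and a gene was called at a Benjamini-Hochberg adjusted p under 0.05. The authors kept a gene only if it passed 1 CPM in at least 3 libraries. S100a8, S100a9, Trem1, Fpr2 and Slpi passed 1 CPM in 0 of the 18 libraries without PE, so these 5 genes entered the matrix only through PE libraries and had to differ there.

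A single library stood apart. MRL PE replicate 2 correlated with the 2 other libraries of its group at 0.812 and 0.827 across genes. Its 7 skeletal muscle fibre markers summed to 25700 CPM against 100000 and 95400 CPM in MRL PE replicates 1 and 3, and its 8 general leukocyte genes summed to 4260 CPM against 92.0 and 107 CPM. The part of this library in the results was not tested, and the comparisons of PE in MRL mice in which it changed the number of these genes called are also given without it. It also enters the spread that all comparisons share. Comparisons that do not include MRL PE muscle are not given without it.

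S100a8 and S100a9 encode the subunits of calprotectin, the most abundant protein of the neutrophil cytosol. In B6 mice S100a8 was at -2.23, -1.27 and -0.70 log2 CPM in uninjured muscle, at -1.95, -1.68 and -0.29 after the control injury, at -1.57, -0.72 and -1.86 with ECM and at 3.59, 4.73 and 1.59 with PE. In MRL mice S100a8 was at -1.16, -2.53 and -3.65 in uninjured muscle, at -1.18, -2.07 and -2.02 after the control injury, at -0.60, -1.20 and -0.35 with ECM and at -1.73, 2.17 and -0.44 with PE. The 3 B6 PE libraries lay above all others except MRL PE replicate 2, which exceeded B6 PE replicate 3. S100a9 followed the same libraries. In B6 mice S100a9 was at -1.95, -1.26 and -0.82 in uninjured muscle, at -0.93, -1.20 and -3.65 after the control injury, at -1.20, -0.23 and -1.33 with ECM and at 4.20, 5.78 and 2.48 with PE. In MRL mice S100a9 was at -2.39, -1.91 and -2.69 in uninjured muscle, at -1.27, -0.74 and -0.92 after the control injury, at -0.99, -2.57 and -0.68 with ECM and at -2.66, 2.48 and -1.67 with PE. Outside PE the subunits were not always seen together: in B6 saline replicate 3 S100a9 was listed at a count of 0 while S100a8 was at -0.29. Over the 18 libraries without PE the correlation of the pair was 0.16, at levels of a few reads, and over all 24 libraries it was 0.88.

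The genes are neighbours on chromosome 3 of GRCm39, S100a8 at chr3:90567118-90578128 on the plus strand and S100a9 at chr3:90599931-90603071 on the minus strand, 21.8 kb apart. The 250 bases upstream of the first base of the canonical GENCODE transcript are shown because the genes rose together. The window of S100a8 lies inside the annotated span of the gene, since another annotated transcript starts earlier, at chr3:90576035-90576284 (plus strand) and that of S100a9 at chr3:90603072-90603321 (minus strand). Capitals mark matches, on either strand, to the letters searched: GAGGAA for the myeloid factor PU.1, TTGCNNAA for C/EBP factors and TATAAA for the TATA box, with no overlap between matches.
S100a8: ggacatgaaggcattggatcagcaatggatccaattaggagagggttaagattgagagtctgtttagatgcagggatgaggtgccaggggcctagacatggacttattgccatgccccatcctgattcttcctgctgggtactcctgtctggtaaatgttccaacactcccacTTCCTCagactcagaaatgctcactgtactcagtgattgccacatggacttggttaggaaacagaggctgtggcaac
S100a9: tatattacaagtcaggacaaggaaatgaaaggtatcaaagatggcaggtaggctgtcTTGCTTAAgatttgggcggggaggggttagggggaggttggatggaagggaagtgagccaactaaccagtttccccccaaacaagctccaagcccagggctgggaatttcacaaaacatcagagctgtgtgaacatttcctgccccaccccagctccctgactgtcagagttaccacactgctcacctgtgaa
S100a8 held 1 PU.1 match, between -77 and -72 from the start site, and S100a9 held 1 C/EBP match, between -193 and -186. Across the same windows of 21757 promoters, 22.9% held the PU.1 letters, 9.34% the C/EBP letters and 11.9% the TATA letters, so single matches of this kind are common and describe the letters only.

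Clec4d (MCL) and Clec4e (Mincle) encode C-type lectins that pair with the Fc receptor gamma chain and bind mycobacterial glycolipids, and Mincle also binds a protein released by dead cells. In B6 mice Clec4d was at -3.02, -1.79 and -1.81 log2 CPM in uninjured muscle, at 0.09, -1.09 and 0.66 after the control injury, at 0.27, 0.41 and 1.55 with ECM and at 5.83, 6.86 and 5.25 with PE. In MRL mice Clec4d was at -0.82, -2.66 and -1.12 in uninjured muscle, at 0.54, -0.19 and 0.26 after the control injury, at -1.28, -1.20 and -0.62 with ECM and at -3.08, 5.95 and -0.43 with PE. For Clec4d the uninjured and the PE libraries of B6 mice overlapped no other B6 group. In MRL muscle every library except PE replicate 2 was at 0.54 or lower. In B6 mice Clec4e was at -3.24, -0.46 and -3.24 in uninjured muscle, at -0.66, -1.03 and -1.95 after the control injury, at 1.11, 0.66 and -0.81 with ECM and at 5.15, 6.41 and 3.85 with PE. In MRL mice Clec4e was at -0.64, -1.32 and -2.17 in uninjured muscle, at -1.85, -1.18 and 1.38 after the control injury, at 1.32, -1.55 and -1.77 with ECM and at -3.00, 4.91 and -1.83 with PE. Single MRL libraries, saline replicate 3 and ECM replicate 1, were high for Clec4e but not for Clec4d.

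This pair also lies side by side, on chromosome 6, with Clec4d at chr6:123239070-123252230 on the plus strand and Clec4e at chr6:123258748-123266829 on the minus strand, 6.5 kb apart. Their upstream windows lie at chr6:123238826-123239075 (plus strand) and at chr6:123266830-123267079 (minus strand), with capitals as above.
Clec4d: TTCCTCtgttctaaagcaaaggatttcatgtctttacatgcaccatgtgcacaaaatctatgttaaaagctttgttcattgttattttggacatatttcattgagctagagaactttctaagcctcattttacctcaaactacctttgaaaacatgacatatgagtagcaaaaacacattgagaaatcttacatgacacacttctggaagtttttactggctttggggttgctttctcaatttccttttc
Clec4e: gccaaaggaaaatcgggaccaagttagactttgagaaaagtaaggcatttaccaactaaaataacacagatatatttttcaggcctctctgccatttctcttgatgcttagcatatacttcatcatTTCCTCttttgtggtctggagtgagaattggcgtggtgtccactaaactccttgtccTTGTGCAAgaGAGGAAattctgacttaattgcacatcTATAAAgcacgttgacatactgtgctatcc
Clec4e held 4 matches: 1 C/EBP match between -67 and -60, PU.1 matches between -124 and -119 and between -57 and -52, and a TATA match between -30 and -25. Clec4d held 1 PU.1 match at the far end of the window, between -250 and -245. Of all 9 genes, 4 held a PU.1 match, 3 a C/EBP match and 2 a TATA match.

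Csf3r, the receptor of granulocyte colony-stimulating factor, passed 1 CPM in 13 of the 18 libraries without PE. In B6 mice Csf3r was at -0.87, 0.85 and -1.05 log2 CPM in uninjured muscle, at 0.52, 0.25 and 0.39 after the control injury, at 3.09, 0.93 and 2.23 with ECM and at 4.19, 5.30 and 2.74 with PE. In MRL mice Csf3r was at -0.86, -0.56 and -0.60 in uninjured muscle, at 1.13, 0.77 and 0.91 after the control injury, at 0.43, 0.14 and 1.48 with ECM and at 0.69, 3.42 and 0.47 with PE. Every B6 ECM library lay above every B6 saline library, and B6 PE overlapped B6 ECM. Trem1 encodes a receptor that amplifies Toll-like receptor signalling in neutrophils and monocytes. In B6 mice Trem1 was at -3.65, -3.07 and -2.28 in uninjured muscle, at -2.40, -1.53 and -3.05 after the control injury, at -2.06, -1.94 and -2.69 with ECM and at 2.15, 3.18 and 0.71 with PE. In MRL mice Trem1 was at -3.65, -3.18 and -3.65 in uninjured muscle, at -2.58, -1.76 and -3.65 after the control injury, at -2.94, -2.61 and -3.65 with ECM and at -3.65, 0.33 and -3.65 with PE. Of the 24 libraries, 15 were under the floor of 3 reads for Trem1 and 7 were at a count of 0, and the 4 libraries above 1 CPM were all PE libraries. Fpr2, a formyl peptide receptor that also binds lipoxins and annexin A1, passed 1 CPM in 3 libraries, all of them PE. In B6 mice Fpr2 was at -3.09, -2.93 and -3.65 in uninjured muscle, at -2.98, -3.13 and -2.04 after the control injury, at -2.56, -3.05 and -1.25 with ECM and at 1.20, 2.16 and -0.50 with PE. In MRL mice Fpr2 was at -2.79, -2.21 and -2.38 in uninjured muscle, at -1.90, -2.75 and -1.33 after the control injury, at -3.65, -1.88 and -2.29 with ECM and at -2.97, 1.08 and -0.67 with PE. For Fpr2, 12 libraries were under the floor.

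Slpi encodes an inhibitor of neutrophil elastase made by myeloid cells and epithelia. In B6 mice Slpi was at -1.33, -2.21 and -2.01 log2 CPM in uninjured muscle, at -1.53, -0.77 and -0.71 after the control injury, at -0.45, -0.03 and -0.08 with ECM and at 4.22, 5.97 and 4.11 with PE. In MRL mice Slpi was at -2.15, -1.68 and -1.31 in uninjured muscle, at -0.61, -1.09 and -0.27 after the control injury, at -1.56, -1.03 and 0.07 with ECM and at -0.82, 4.56 and -1.21 with PE. The B6 groups were ordered from uninjured to saline, ECM and PE, with overlap only between uninjured and saline. The 8 epithelial, skin and mammary markers summed to 71.4 to 108 CPM in uninjured B6 muscle and 11.2 to 315 CPM with saline. In B6 mice they summed to 97.8 to 193 CPM with ECM and 139 to 195 CPM with PE. Their part in the Slpi levels was not tested. Myo1f, an unconventional myosin of leukocytes used in adhesion and migration, was the one gene above 1 CPM in all 24 libraries. In B6 mice Myo1f was at 1.78, 1.31 and 2.10 in uninjured muscle, at 2.86, 3.10 and 3.37 after the control injury, at 4.32, 2.57 and 4.56 with ECM and at 7.35, 8.24 and 6.42 with PE. In MRL mice Myo1f was at 1.88, 2.35 and 2.22 in uninjured muscle, at 3.42, 2.33 and 2.64 after the control injury, at 2.43, 2.34 and 4.03 with ECM and at 2.65, 8.44 and 2.78 with PE. The highest Myo1f level of all was in MRL PE replicate 2, while the highest level of each of the 8 other genes was in B6 PE replicate 2.

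**Figure D1:**
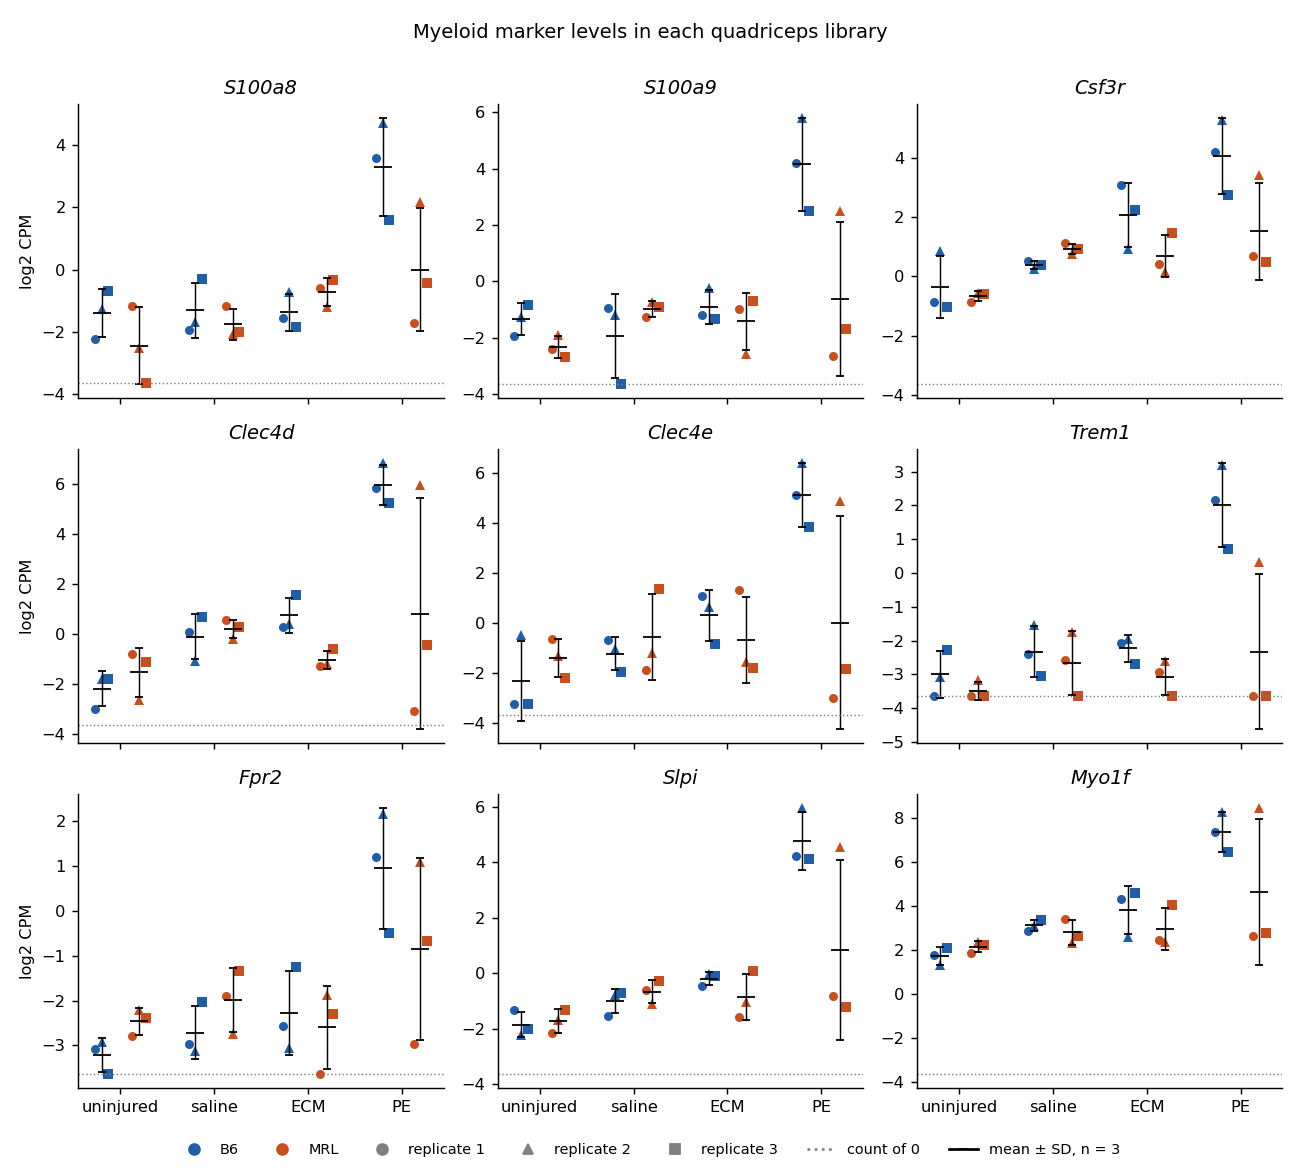
Level of each gene in log2 CPM (y axis) in every library, by treatment (x axis) and strain (colour), with the replicate number as the symbol, bars for the mean ± SD (n = 3) and a dotted line at a count of 0. The 3 B6 PE libraries lie above every B6 saline library for all 9 genes, as for 18.7% of all genes, least so for Fpr2 in replicate 3 (-0.50). S100a8, S100a9, Trem1, Fpr2 and Slpi entered the matrix only through PE libraries and had to differ there. Of the MRL PE libraries replicate 2 is the highest for each gene, for example at 5.95 for Clec4d against -3.08 and -0.43.

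Per kilobase of canonical transcript, the mean levels in B6 PE muscle ranged from 52.9 CPM per kb for Clec4d, 47.6 for Myo1f and 45.8 for S100a9, through 37.5 for Slpi, 28.0 for S100a8 and 17.8 for Clec4e, to 6.08 for Csf3r, 1.83 for Fpr2 and 1.66 for Trem1. B6 PE was the highest of the 8 group means for each of the 9 genes, in log2 CPM and in CPM. For S100a8, S100a9, Trem1, Fpr2 and Slpi the filter favoured a PE group as the highest. The share of all genes with the highest mean in B6 PE was not computed. The second highest mean log2 CPM was that of MRL PE for 6 genes and of B6 ECM for Csf3r, Clec4e and Trem1, and the second highest mean CPM was that of MRL PE for 8 genes. These places rested on MRL PE replicate 2: without it MRL PE was second for 1 gene on either scale.

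The first comparison asked how PE changed these genes over the control injury in B6 mice. All 9 were called higher, against 5.37% of all genes called higher. The 5 genes that entered through PE libraries had to differ, so the count of 9 is no evidence, and the other 4 are Csf3r, Clec4d, Clec4e and Myo1f. S100a8 differed by 4.61 (SE 0.88, limma adjusted p = 0.0174) and S100a9 by 6.08 (SE 1.03, limma adjusted p = 0.00999) on the log2 scale. The S100a9 difference rests in part on B6 saline replicate 3, at a count of 0. Clec4d differed by 6.09 (SE 1.34) and Clec4e by 6.35 (SE 1.47), with limma adjusted p of 0.0224 and 0.0244. Among the receptors, Csf3r differed by 3.69 (SE 0.73), Trem1 by 4.34 (SE 0.89) and Fpr2 by 3.67 (SE 0.86), with limma adjusted p between 0.0183 and 0.0245. Slpi differed by 5.77 (SE 0.98, limma adjusted p = 0.00999) and Myo1f by 4.23 (SE 1.01, limma adjusted p = 0.0257). Every B6 PE library lay above every B6 saline library for all 9 genes, as for 18.7% of all genes. These calls rested on 3 libraries a group. Without B6 PE replicate 1 or 2 the count of the 9 genes called fell to 0, where 7 and 2 genes of the whole matrix were called, and without saline replicates 1, 2 and 3 it was 4, 2 and 2. B6 PE replicate 2, the highest, also had the lowest muscle fibre sum of B6 PE muscle, at 41500 CPM against 82000 and 92600 CPM.

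In MRL mice the same comparison gave 0 of 9 genes called, with 0% of all genes called and 3298 genes at an unadjusted p under 0.05 (limma). The log2 differences were between 0.34 for Trem1 and 1.83 for Myo1f, with limma adjusted p between 0.233 and 0.851, and the groups overlapped for every gene. The positive values came with MRL PE replicate 2. Without it, Clec4d differed by -1.96, Clec4e by -1.86, S100a9 by -1.19, Trem1 by -0.99, Slpi by -0.36, Csf3r by -0.35 and Myo1f by -0.08, and S100a8 by 0.67 and Fpr2 by 0.17, with 0 called. MRL PE replicates 1 and 3 were at or below the highest MRL saline library for all 9 genes, except for S100a8 and Fpr2 in replicate 3.

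**Figure D2:**
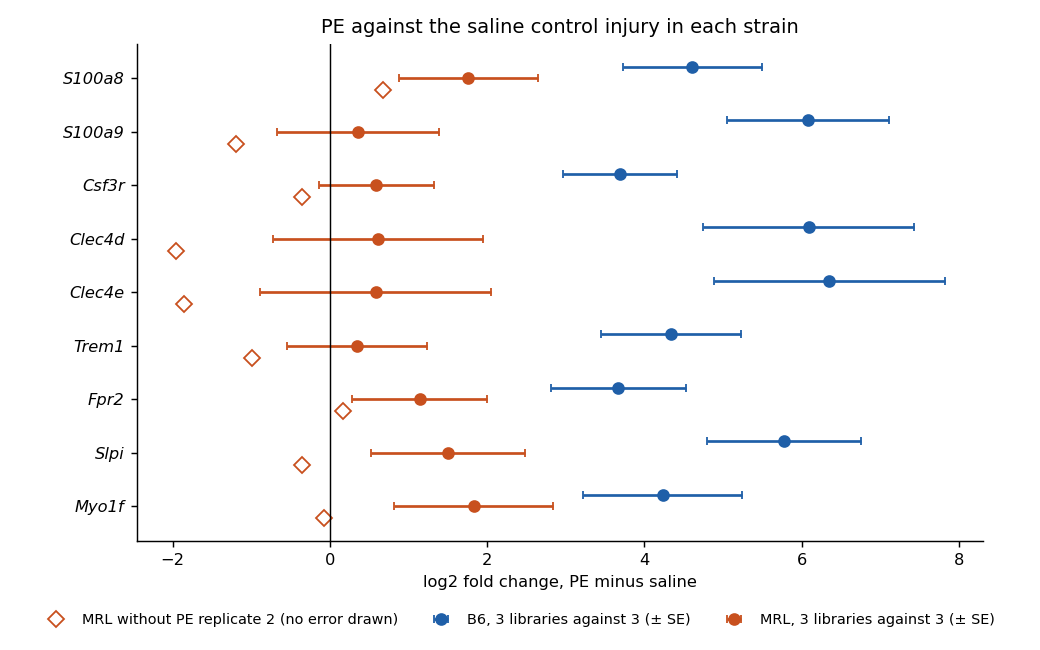
Log2 fold change of PE over the saline control injury (x axis) for each gene (y axis) in B6 and MRL mice, as circles with the standard error of the limma fit, and in MRL mice without PE replicate 2, as open diamonds. B6 values lie between 3.67 and 6.35, MRL values between 0.34 and 1.83, and the diamonds between -1.96 and 0.67.

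The difference between the strains was tested itself, as the strain difference of PE over the control injury. It was negative for all 9 genes, from -2.40 (SE 1.43) for Myo1f to -5.77 (SE 2.08) for Clec4e, and -5.72 (SE 1.46) for S100a9. At an unadjusted p under 0.05, 7 of the 9 genes passed, but the limma adjusted p was 0.988 for each, and 0% of all genes were called (614 at an unadjusted p under 0.05). Without MRL PE replicate 2, 7 of the 9 were called, S100a8 (adjusted p = 0.0526) and Fpr2 (adjusted p = 0.0862) being the exceptions, and 625 genes of the whole matrix were called. The call of a strain difference thus depends on 1 library. The strain differences of PE over ECM and of ECM over saline gave 0 of the 9 genes, with 0% of all genes called in each. Without MRL PE replicate 2 the strain difference of PE over ECM called 7 of the 9, among 269 genes of the whole matrix.

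With PE in both strains, MRL muscle was compared with B6 muscle directly. In MRL mice 5 of the 9 were called lower, against 1.74% of all genes called lower. S100a8, S100a9, Trem1 and Slpi passed 1 CPM only in the 3 B6 PE libraries and MRL PE replicate 2, so the filter favoured higher levels in B6 mice and the count of 5 is no evidence. Trem1 differed by -4.34 (SE 0.89, limma adjusted p = 0.00727), S100a9 by -4.77 (limma adjusted p = 0.0114), Slpi by -3.92 (limma adjusted p = 0.0295), Clec4d by -5.17 (limma adjusted p = 0.0375) and S100a8 by -3.30 (limma adjusted p = 0.0439). Csf3r at -2.55, Clec4e at -5.11, Fpr2 at -1.80 and Myo1f at -2.72 had limma adjusted p of 0.0605, 0.0629, 0.259 and 0.143. For Trem1 alone did every MRL library lie below every B6 library, as for 7.59% of all genes. MRL PE replicates 1 and 3 were at a count of 0 for Trem1, where the added prior count lowers the difference. Libraries with the same replicate number deviated together in this comparison. With replicate number as a block over these 2 groups, 0 of the 9 genes were called, with a limma adjusted p of 0.129 for Trem1. A fit of these 2 groups alone, without the block, also called 0 of the 9. The loss of calls cannot be assigned to the block, and the labels do not pair the mice. Without MRL PE replicate 2 all 9 genes were called, with log2 differences from -2.77 for Fpr2 to -7.74 for Clec4d, alongside 3490 genes of the whole matrix, and without MRL PE replicate 1 or 3 or B6 PE replicate 2 none was, and 1 without B6 PE replicate 1. Other cell type markers differed in the same comparison: 4 of 5 red blood cell markers and 4 of 5 mast cell markers were called higher in MRL muscle. Of the mast cell markers, Tpsb2 was at a count of 0 in every B6 group and was also called higher in uninjured, saline and ECM muscle of MRL mice. Cpa3 was also called higher there with saline (1.99) and ECM (1.90), whereas Cma1 and Mcpt4 were called only with PE. The red blood cell markers summed to 671 to 4130 CPM in MRL PE and 70.3 to 118 CPM in B6 PE, and the mast cell markers to 31.2 to 45.0 CPM and 7.55 to 11.6 CPM. Their part in the result was not tested.

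Outside PE no strain difference was called for the 9 genes. In uninjured muscle, after the control injury and with ECM, the test between MRL and B6 mice called 0 of the 9 genes, while 2.60%, 2.51% and 2.66% of all genes were, and 0 of the 9 passed an unadjusted p of 0.05 (limma). The log2 differences with ECM ranged from -1.77 for Clec4d to 0.66 for S100a8. Every MRL library lay below every B6 library for Clec4d with ECM, as for 12.8% of all genes. The reverse held for Fpr2 in uninjured muscle and Csf3r with saline, as for 12.2% and 7.48%. Each gene had 1 spread over all 8 groups, including MRL PE replicate 2. For Clec4d the SD was 4.64 in MRL PE, 0.36 in MRL ECM and 0.70 in B6 ECM, and the SE with ECM was 1.34. These p-values do not show that the strains were alike at such low levels.

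The materials were then compared in B6 mice. PE was above ECM for all 9 genes, and S100a8 (log2 difference 4.68, limma adjusted p = 0.0443), S100a9 (5.07, limma adjusted p = 0.0481) and Slpi (4.96, limma adjusted p = 0.0476) were called, against 0.198% of all genes called higher. All 3 belong to the genes that entered through PE libraries. Every PE library lay above every ECM library for 8 genes, as for 19.5% of all genes, the exception being Csf3r, whose difference was 1.99. The number called was 0 without any 1 of the ECM libraries or without PE replicate 1 or 2. In MRL mice 0 of the 9 were called between PE and ECM and 0% of all genes (4022 at an unadjusted p under 0.05, limma).

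ECM was then set against saline, the vehicle. Against the control injury in B6 mice, 0 of 9 were called, against 0.0283% of all genes, and 1 passed an unadjusted p of 0.05: Csf3r, with a log2 difference of 1.70 (SE 0.73). Csf3r and Slpi (0.82, SE 0.98) were the genes for which every ECM library lay above every saline library, as for 4.53% of all genes. In MRL mice 0 of 9 were called (0.00706% of all genes, 0 of 9 at an unadjusted p under 0.05 by limma).

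The injury alone was compared with uninjured muscle. None of the 9 genes was called 21 days after the control injury in either strain, with 0% of all genes called in both and 1751 genes in B6 and 439 in MRL mice at an unadjusted p under 0.05 (limma). PE against uninjured muscle called all 9 genes in B6 mice, against 14.7% of all genes called higher, with no overlap for any of the 9 (27.0% of all genes). S100a8, S100a9, Trem1, Fpr2 and Slpi entered the matrix only through PE libraries and had to differ, so the count of 9 is no evidence here either. Clec4d was the most changed, by 8.19 on the log2 scale (SE 1.34, limma adjusted p = 0.0018), with 7.45 for Clec4e, 6.62 for Slpi, 5.61 for Myo1f, 5.49 for S100a9, 5.01 for Trem1, 4.70 for S100a8, 4.43 for Csf3r and 4.17 for Fpr2. Fpr2 (3 libraries), Trem1 and Clec4e (2 libraries each) and Clec4d (1 library) lay under the floor of 3 reads in uninjured B6 muscle, where the added prior count lowers the difference. All 9 were called without any 1 library of these groups. In MRL mice 0 of 9 were called between PE and uninjured muscle although 9.73% of all genes were. Csf3r came closest, with a log2 difference of 2.20 (SE 0.73, limma adjusted p = 0.0556), while Slpi differed by 2.56 (SE 0.98, limma adjusted p = 0.0779) and Myo1f by 2.47 (SE 1.01, limma adjusted p = 0.0916). For these 3 genes every PE library lay above every uninjured library, as for 18.9% of all genes. Without MRL PE replicate 2 the differences were 1.25 for Csf3r, 0.70 for Slpi and 0.56 for Myo1f, with 0 of the 9 and 1 gene of the whole matrix called. The number called was 6 without MRL PE replicate 1 and 3 without MRL PE replicate 3. ECM against uninjured muscle called 0 of 9 in B6 (0.424% of all genes) and 0 of 9 in MRL mice (0.0141%), with 2 and 0 of the 9 at an unadjusted p under 0.05 (limma). PE and ECM comparisons within a strain share their saline or uninjured libraries.

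Other genes of the neutrophil program were read from fixed lists, for PE against the control injury in B6 mice, where 845 of 14159 genes were called and the median log2 difference of all genes was 0.02. Of the granule and core neutrophil genes 7 had a row, and 3 of them rose: Hdc, which makes histamine, by 4.83, Mmp9, gelatinase B, by 4.37, and Cxcr2, the chemokine receptor of neutrophils, by 3.08. The 4 others were Lcn2 (3.92, limma adjusted p = 0.14), Ltf (3.89, limma adjusted p = 0.131), Mmp8 (1.72, limma adjusted p = 0.301) and Padi4 (1.70, limma adjusted p = 0.15), and the median of the 7 was 3.89. Lcn2 and Ltf, which glandular epithelium also makes, went their own way: Lcn2 was at 4.09, 4.57 and 4.27 log2 CPM in B6 PE, but also at 3.63, 4.61 and 4.57 in uninjured B6 muscle and at -1.90, -1.64 and 4.72 after the control injury. The defining genes Mpo, Elane, Prtn3, Ctsg, Ngp, Camp, Cd177, Ly6g, Retnlg, Stfa2l1 and BC100530 had no row and were not analysed here, so the label neutrophil rests on few genes, and inflammatory myeloid markers is the name that the measured genes carry.

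Of 16 attractants, their receptors and growth factors, 12 rose (median log2 difference 3.31). Cxcl2, a chemokine that draws neutrophils, rose by 7.42, from -1.83 to 5.59 log2 CPM, Il1b, the inflammatory cytokine, by 5.42, and Csf2ra, a chain of the GM-CSF receptor, by 4.74. Cxcl3, a relative of Cxcl2, rose from a count of 0 in every B6 saline library to a mean of 2.20 log2 CPM, which is at least 23.1-fold higher against a floor of 3 counts per library, and the median with Cxcl3 at this bound was 3.31. Csf3 and Csf2, the growth factors themselves, had no row. Of 13 genes of lectin and TREM receptor signalling, 6 rose (median 3.12): Lat2, a leukocyte adaptor, by 6.14, Trem2, a macrophage relative of Trem1, by 5.34, Clec7a (Dectin-1) by 4.69, and Fcer1g, the signalling partner of Clec4d and Clec4e, by 3.20, besides Syk and Clec4n. Tyrobp, the partner of Trem1, differed by 3.52 (limma adjusted p = 0.0719). Of 5 genes of the S100A8/S100A9 and lipopolysaccharide receptors, 1 rose, Cd14 by 3.73, and the median was 1.47. Tlr4, a receptor that calprotectin binds, differed by 0.91 (limma adjusted p = 0.169).

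Markers of other cells moved at the same time. All 8 general leukocyte genes rose (median 3.74), led by Itgb2 (5.60) and Itgam (4.51), the chains of the myeloid integrin Mac-1, and 7 of 11 macrophage and monocyte markers rose (median 2.07), among them Cd68 by 4.52, Lyz2 by 3.65 and Emr1, which encodes F4/80, by 2.88. The red blood cell markers summed to 70.3 to 118 CPM with PE and 180 to 1490 CPM after the control injury. None of the 2 eosinophil, 5 T and B cell, 5 mast cell, 8 epithelial, 6 adipocyte, 7 muscle fibre or 5 red blood cell markers was called, with medians of 1.46, 0.59, 0, 2.38, -1.27, -0.92 and -2.30. Without B6 PE replicate 1 or 2, 1 granule gene and 0 genes of the other lists were called. In MRL mice 0 genes of any list were called. Between PE and ECM in B6 mice, 2 of the 7 granule genes (Mmp9, 3.47, and Hdc, 3.41), 4 of the 16 attractant genes, among them Il1b (5.66), and 1 of the 13 lectin and TREM genes (Clec4n, 3.75) were called higher, against 0.198% of all genes. Without any 1 ECM library, 2 to 5 genes of the whole matrix and 0 of these lists were called. Between the strains with PE, 1 granule gene (Hdc, -2.65), 5 attractant genes led by Cxcl2 (-5.94), Il1b (-4.80) and Cxcl3 (-4.07), 1 lectin gene (Clec7a, -4.54), 1 macrophage marker (C1qb, -2.10) and 2 T cell markers (Cd3e, -2.66, and Cd3d, -2.34) were lower in MRL mice, 1 adipocyte marker (Lep, 4.82) was higher, and 0 of the 8 general leukocyte genes was called, where 1.74% of all genes were called lower. Cd3e (-3.29) and Cd3d (-1.89) were also called lower in uninjured MRL muscle, and Cd3d (-2.19) also with ECM, so these differences are not particular to PE. With the replicate block, fitted to the 2 PE groups alone, 83 genes of the whole matrix were called, among them 0 granule, attractant or lectin genes. Without MRL PE replicate 2, 5 of 7 granule, 12 of 16 attractant, 12 of 13 lectin and TREM, 8 of 11 macrophage and monocyte and 8 of 8 general leukocyte genes were called lower.

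Because leukocyte genes rose as a whole, each of the 9 genes was also set against the summed level of the 8 general leukocyte genes in the same library, as CPM per 1000 CPM of leukocyte genes. These ratios are descriptions, chosen after the levels were seen, and rest on few reads outside PE. S100a9 and Slpi entered the matrix only through PE libraries. The leukocyte sum was 1070 to 3410 CPM in B6 PE and 99.6 to 121 CPM in B6 saline muscle. The division thus lowers every gene that rose less than this sum with PE. The shares of all genes below are low for that reason and are no fair background for myeloid genes. In B6 muscle, 4 genes were above the control injury in every PE library by this measure too, as were 0.551% of all genes: Clec4d at 31.8, 34.1 and 35.7 against 3.93 to 13.3, Clec4e at 19.9, 24.9 and 13.5 against 1.60 to 4.58, Slpi at 10.4, 18.4 and 16.1 against 2.21 to 5.08, and S100a9 at 10.3, 16.1 and 5.14 against 0 to 3.68. Clec4d, Clec4e and Slpi were also above every B6 ECM library, as were 0.480% of all genes. In MRL mice, however, the Clec4e ratios of ECM replicate 1 (33.4) and saline replicate 3 (25.6) exceeded every B6 PE library. Every other library outside B6 PE was at 13.3 or lower for Clec4e. Myo1f overlapped the control injury, at 80.1 to 91.8 with PE and 59.1 to 91.2 with saline. Csf3r was at 6.20 to 11.5 with PE, where saline libraries lay between 11.0 and 11.1 and ECM libraries between 16.1 and 25.9. S100a8, Trem1 and Fpr2 overlapped the control injury.

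MRL PE replicate 2 was also set against B6 PE muscle by the same ratios. With 4260 CPM it had the highest leukocyte sum of all 24 libraries, above the 1070 to 3410 CPM of B6 PE, and its macrophage and monocyte markers summed to 4390 CPM, within the 1500 to 5300 CPM of B6 PE. Its Myo1f ratio, 81.5, lay within the B6 PE range. Its ratios for the 8 other genes lay below the lowest B6 PE library: S100a8 at 1.04 against 2.74, S100a9 at 1.29 against 5.14, Csf3r at 2.50 against 6.20, Trem1 at 0.276 against 1.45, Clec4e at 7.03 against 13.5, Clec4d at 14.5 against 31.8, Slpi at 5.52 against 10.4 and Fpr2 at 0.479 against 0.587. Division by the highest leukocyte sum lowers every gene that rose less than the leukocyte genes did. The share of all genes below B6 PE by this measure was not computed, so the count of 8 is no result about these genes. This is 1 library, and the difference was not tested.

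**Figure D3:**
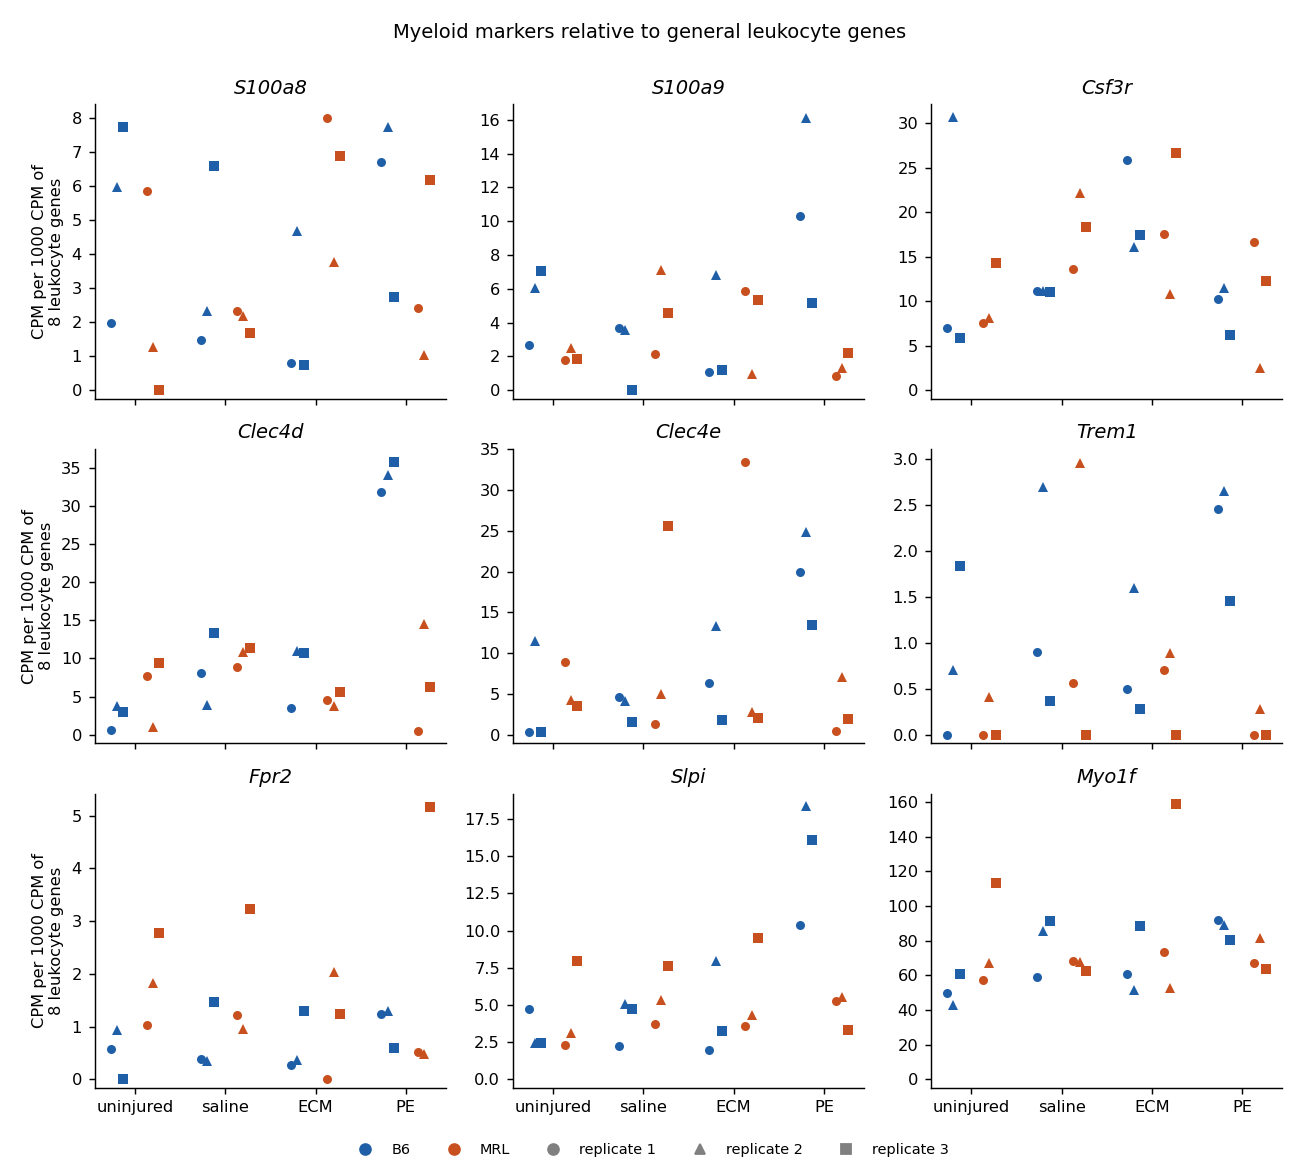
Level of each gene as CPM per 1000 CPM of the 8 general leukocyte genes of the same library (y axis), by treatment (x axis), strain (colour) and replicate (symbol). Clec4d is between 31.8 and 35.7 in B6 PE and at most 14.5 in every other library, and Myo1f overlaps between B6 saline and B6 PE. MRL PE replicate 2 (triangle) lies below B6 PE for every gene except Myo1f. That library had the highest leukocyte sum of all, which lowers its ratios.

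Across all 24 libraries the 36 pairs of the 9 genes correlated at 0.76 to 0.96, with a median of 0.87. Over the 18 libraries without PE the range was -0.29 to 0.77, with a median of 0.24. Myo1f, Csf3r, Slpi and Clec4d stayed together there, at 0.66 to 0.77, whereas S100a8 reached at most 0.22 with any other gene. The libraries share their depth range and muscle composition, and the correlations are given as a description.

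**Figure D4:**
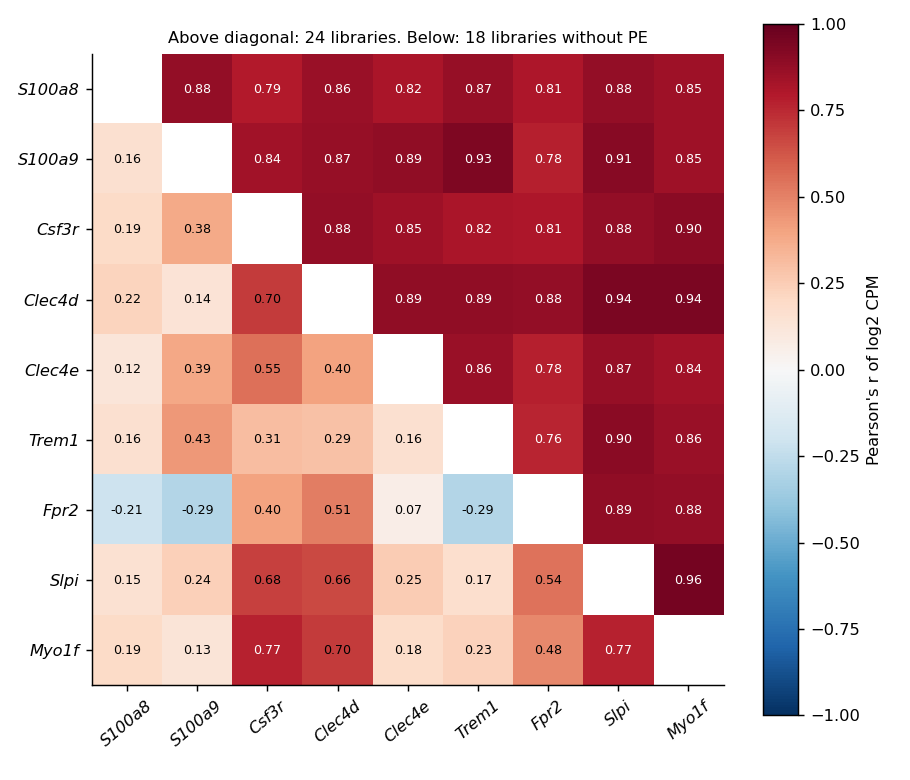
Pearson's r of log2 CPM between each pair of genes (both axes), over 24 libraries above the diagonal and over the 18 libraries without PE below it. Values above the diagonal lie between 0.76 and 0.96, and those below it between -0.29 and 0.77, with the highest for Myo1f with Csf3r and with Slpi.

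The non-member genes most like each gene over the 24 libraries were taken by Pearson's r, and some were shared between genes. Myo1f was most like Cd68 (r = 0.982), Cyba (0.982) and Rac2 (0.981). S100a9 was most like Irg1 (0.946), Cxcl2 (0.936) and Cxcl3 (0.933), and Trem1 most like Mrgpra2b (0.939) and Cxcl2 (0.934). S100a8 was most like Ptgs2 (0.921), Clec4d like Cd300lb (0.974), Clec4e like Irg1 (0.943), Csf3r like Nrros (0.946), Fpr2 like Tnf (0.94) and Slpi like Mfge8 (0.966). They were not computed without the PE libraries and carry no test.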

How the data were processed

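Bulk RNA was sequenced from 24 quadriceps samples, 3 in each of 8 groups taken from the sample labels. The study calls the samples independent, and p-values measure the spread between them. The authors pseudoaligned reads with kallisto to the GRCm39 transcriptome, summed them to gene symbols (EnsDb version 79), kept genes above 1 CPM in at least 3 libraries, applied TMM scaling in edgeR and deposited values in log2 CPM that include a prior count of 2. Depth was read from the lowest value, a count of 0, as a mean effective library size of 25149682 reads, at which 3 counts are 0.119 CPM. Counting limits cover counting error only. Of 14160 rows, 1 without a symbol (0.0055% of CPM) was left out.

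Groups were compared on the deposited values with limma 3.58.1 in R 4.3.3, with 1 coefficient per group over 24 libraries, a variance trend, 2-sided tests and Benjamini-Hochberg adjustment over 14159 genes. The prior was taken off for linear CPM. In simulated data for PE against saline in B6 mice (14159 genes, 200 changed), 90% of changes of 3 and 58% of changes of 1.5 (log2) were called, with 5 false calls. The simulated noise was independent between genes and no simulated library stood apart. These shares check the fit and do not measure its power in the real libraries. The 9 genes and the marker lists were chosen with earlier results of these data known. All 9 are named in every library. Of the lists, the called genes with the largest log2 difference are named, up to 4 per list, with defining genes at a count of 0. List genes that were not called, Syk, Clec4n in B6 PE against saline, Tyrobp and Tlr4 were named after their values were seen. The 3 most correlated other genes per gene were taken.

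Alternatives were a log2(CPM + 1) scale, a mean log2 CPM of at least 1, equal totals, quantile normalization, library weights, no variance trend, the compared groups only, a replicate block, and leaving out each library. Residuals of libraries with the same replicate number correlated above 0.1 for all 3 numbers only between the strains with PE (0.105, 0.532 and 0.439), where the numbers were taken as pairs from this check alone. Upstream sequences were read from GRCm39 with GENCODE starts, and promoter shares from the same genome. Figures used Python 3.11.15 and matplotlib 3.10.9.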

Additional observations from a re-analysis of the deposited data

How the results depend on the processing

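The 3 libraries a group and levels of a few reads outside PE limit every comparison of these genes. Under a mean log2 CPM of at least 1 only Csf3r and Myo1f remained to be tested, so the number called was 2 for PE against saline and 2 against uninjured muscle in B6 mice, 0 for PE against ECM in B6 mice and 0 for MRL against B6 with PE. With library weights, which called up to 9640 genes of the matrix, the number was 9 for PE against ECM in B6, 9 for MRL against B6 with PE, 9 for the strain difference of PE over saline, 7 for that of PE over ECM, 5 for ECM and 4 for saline against uninjured muscle in B6, 2 for ECM against saline in B6, and 1 each for PE against saline in MRL, MRL against B6 with saline and MRL against B6 with ECM. PE against ECM in B6 gave 6 on the log2(CPM + 1) scale, 0 with equal totals and 5 with only the compared groups, which gave 0 for MRL against B6 with PE and 1 for ECM against uninjured muscle in B6. Equal totals gave 1 for PE against uninjured muscle in MRL. The replicate block, fitted to the compared groups only, gave 0 for PE against ECM in B6, 0 for MRL against B6 with PE and 7 for PE against saline in B6. The labels do not pair mice by replicate number. Between the strains with PE the compared groups alone, without a block, already gave 0. The loss of calls there cannot be assigned to the block.

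Leaving out 1 library at a time, the number called ranged from 0 to 9 for PE against saline in B6, 0 to 4 for PE against ECM in B6, 0 to 9 for MRL against B6 with PE, 0 to 6 for PE against uninjured muscle in MRL, and 0 to 7 for the strain differences of PE over saline and of PE over ECM. In PE against saline in MRL mice, the log2 difference turned negative with library weights for S100a9 (-1.07), Csf3r (-0.28), Clec4d (-1.44), Clec4e (-2.45, adjusted p = 0.0484 by limma), Trem1 (-0.60) and Slpi (-0.42). Leaving out 1 library gave ranges of -1.19 to 1.38 for S100a9, -0.35 to 1.12 for Csf3r, -1.96 to 2.56 for Clec4d, -1.86 to 2.09 for Clec4e, -0.99 to 1.00 for Trem1, -0.36 to 2.52 for Slpi and -0.08 to 2.82 for Myo1f. No other direction changed among the log2 differences followed gene by gene, which were those of PE against saline, ECM and uninjured muscle in B6 mice, of MRL against B6 with PE, of the strain difference of PE over saline, of Csf3r and Slpi for ECM against saline in B6 mice, and of Csf3r, Slpi and Myo1f for PE against uninjured muscle in MRL mice. The cause of these shifts was not tested.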
